A study of Rattus norvegicus with 144 samples.

Results

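The 10 genes described here, Dusp1, Dusp6, Nr4a1, Rgs2, Klf6, Egr1, Egr3, Fos, Jun and Junb, belong to the immediate early class, and they were followed in rat blood after acetaminophen. They were chosen by name, with earlier results of these data known. The array annotation assigns 15 probes to them, for 10 of the 8354 named genes tested, within 14678 features in all. Acetaminophen (APAP) is a pain reliever whose overdose damages the liver. Male F344/N rats of 10 to 12 weeks received 0 (0.5% ethyl cellulose, the vehicle), 150, 1500 or 2000 mg/kg by gavage in 2 portions, and blood was taken at 3, 6 or 24 h, with 6 animals in each of the 12 groups. All 72 animals share strain and sex, and each contributed a dye-swapped pair of arrays on which the other channel held RNA pooled from 6 vehicle animals of its own time. Time, animal number and dye come from the labels, whereas dose comes from a deposited key of what was a blinded set, in which 72 of 72 times matched the labels.

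Every value below is a log2 ratio of the animal over that pool, averaged over the 2 arrays, so 0 means equal to the vehicle pool and the ratios carry no absolute level. Whole blood was therefore not checked against the level of its defining genes, although 9 of 14 listed erythroid and 11 of 16 listed T cell markers had values. The deposited ratios are taken as log10 of Cy5 over Cy3, which is likely but stated in no source used here, and the directions below rest on it. All 15 member probes had a value on 144 of 144 arrays. Precision is limited by how many animals and arrays there are.

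Immediate early genes are transcribed within minutes of a stimulus from factors already present in the cell. Growth factors, antigen receptors and stress activate MAP kinases, which phosphorylate ELK proteins bound with SRF at serum response elements, while cyclic AMP and calcium act through CREB at cyclic AMP response elements (CREs). The products fall into transcription factors (the AP-1 subunits FOS, JUN and JUNB, the EGR zinc fingers, KLF6 and the nuclear receptor NR4A1) and feedback inhibitors of the signal itself (the MAP kinase phosphatases DUSP1 and DUSP6, and RGS2, which speeds GTP hydrolysis by G proteins). In blood they are expressed by leukocytes, where several are known to respond within a short time to activation, glucocorticoids and handling.

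The promoter windows of the 5 members with the clearest differences from vehicle in the sections that follow are shown first. They were searched for control elements of the kinds named above. They are 250 bases before the annotated start, read 5′ to 3′ on the gene's strand from RefSeq's GRCr8 annotation, at chr7:35979354-35979603 (plus strand) for Dusp6, chr13:58352667-58352916 (minus) for Rgs2, chr7:134259888-134260137 (plus) for Nr4a1, chr17:69458479-69458728 (minus) for Klf6 and chr10:17184603-17184852 (plus) for Dusp1. Capitals mark matches to a searched motif on either strand.
Dusp6: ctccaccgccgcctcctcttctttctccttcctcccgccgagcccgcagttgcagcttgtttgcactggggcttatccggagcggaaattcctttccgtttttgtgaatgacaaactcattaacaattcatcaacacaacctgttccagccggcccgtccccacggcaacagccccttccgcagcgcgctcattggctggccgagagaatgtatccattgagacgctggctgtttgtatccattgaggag
Rgs2: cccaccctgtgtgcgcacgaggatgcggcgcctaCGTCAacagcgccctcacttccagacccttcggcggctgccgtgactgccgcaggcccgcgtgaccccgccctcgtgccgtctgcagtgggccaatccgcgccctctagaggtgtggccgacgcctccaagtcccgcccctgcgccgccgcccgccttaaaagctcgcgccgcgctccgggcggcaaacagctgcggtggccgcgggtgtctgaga
Nr4a1: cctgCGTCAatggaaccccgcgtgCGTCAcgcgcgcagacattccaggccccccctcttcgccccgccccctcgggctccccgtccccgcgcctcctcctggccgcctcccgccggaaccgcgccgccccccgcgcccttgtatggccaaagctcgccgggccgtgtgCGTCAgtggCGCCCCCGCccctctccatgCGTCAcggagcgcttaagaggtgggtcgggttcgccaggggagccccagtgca
Klf6: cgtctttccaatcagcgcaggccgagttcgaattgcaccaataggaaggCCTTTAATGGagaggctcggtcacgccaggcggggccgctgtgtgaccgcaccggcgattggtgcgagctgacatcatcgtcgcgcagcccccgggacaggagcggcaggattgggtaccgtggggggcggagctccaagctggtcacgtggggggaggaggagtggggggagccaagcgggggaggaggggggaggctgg
Dusp1: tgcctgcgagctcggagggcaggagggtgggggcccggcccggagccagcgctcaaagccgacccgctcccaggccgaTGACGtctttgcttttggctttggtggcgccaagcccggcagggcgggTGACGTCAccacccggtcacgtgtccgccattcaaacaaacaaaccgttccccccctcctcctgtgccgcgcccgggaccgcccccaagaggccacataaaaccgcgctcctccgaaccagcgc

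The motifs searched on both strands were the CRE TGACGTCA, its core TGACG, the AP-1 site TGACTCA, the CArG box that SRF binds, the EGR sites GCGGGGGCG and GCGTGGGCG, and the TATA sequence TATAAA, in windows of 300 bases that add 50 bases after the start. Of the 10 members 7 had a window, and Fos, Egr3 and Jun are named only. The Dusp1 window held a full CRE at -124, a match found in 1.83% of 33469 windows, and 3 copies of the core, of which 2 overlap that CRE. As many as 3 cores occurred in 1.11% of windows. Nr4a1 held 4 cores on the minus strand, at -246, -226, -82 and -53, a number reached in 0.236% of windows, and an EGR site at -73 (3.2% of windows). Rgs2 held 1 core at -216, a motif in 21.2% of windows. Klf6 held a CArG box at -201, and Egr1 held a pair of CArG boxes at -105 and -83 and cores at -135 and -66, with a CArG box in 1.64% of windows. Junb held a core at -155 and TATAAA at -49 (14.2% of windows). No AP-1 site (4.63% of windows) lay in the 7 windows, and none of the searched letters lay in that of Dusp6. These matches describe the letters and were not tested against the expression values.

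How well the 2 arrays of an animal repeat each other differed widely among the members, and it sets how each result below can be read. Over 72 animals the Cy5 and the turned Cy3 array correlated with r = 0.98 for Klf6, 0.89 for Dusp6, 0.75 for Rgs2 and 0.61 for Nr4a1. The value was 0.42 for Junb, 0.29 for Egr3 and 0.27 for Fos. For Egr1 (0.01), Dusp1 (-0.04) and Jun (-0.11) the pair of arrays did not order the animals alike, so a difference in these genes appeared only in means over animals. Members also differed in the spread between animals of 1 group, pooled over the groups. The within-group SD of Nr4a1 lay at the 99.1 percentile of all features and that of Dusp6 at the 95.9 percentile, whereas Egr3 lay at the 10.2 and Dusp1 at the 22.3 percentile.

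**Figure D1:**
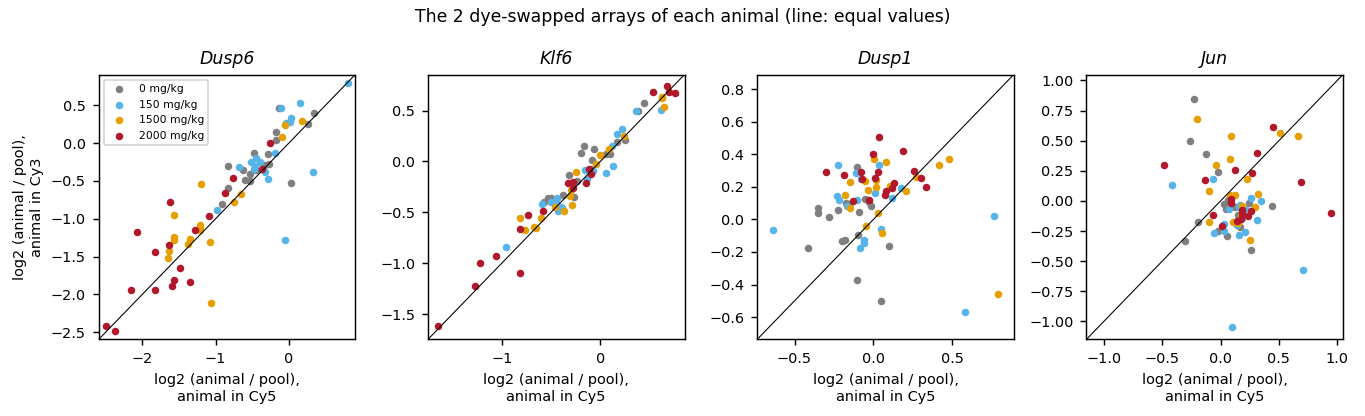
The log2 ratio of animal over pool on the array with the animal in Cy3 (y axis) is plotted against the array with the animal in Cy5 (x axis), 1 point for each of 72 animals, coloured by dose, with a line at equal values. Points for Klf6 and Dusp6 follow the line (r = 0.98 and 0.89), and those for Dusp1 and Jun do not (r = -0.04 and -0.11).

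Dusp6 encodes a cytoplasmic phosphatase that removes the activating phosphates of ERK, and its difference at 3 h was the largest among the members when probes are averaged, although 1 probe of Rgs2 alone went further (-1.81, against -1.71 and -1.58 for the Dusp6 probes). At 3 h the 6 animals given 2000 mg/kg had a lowest, median and highest log2 ratio of -2.46, -1.87 and -1.22, against -0.71, -0.35 and 0.37 in vehicle animals. The groups did not overlap. How many of all 14678 features separated in this way was not counted, here or for the other members below. The means were -1.91 ± 0.49 in 2000 mg/kg and -0.26 ± 0.39 in vehicle animals (SD, n = 6 each), a log2 difference of -1.64 (SE 0.27), 3.13-fold lower, with limma's adjusted p = 2.4e-05. With 1500 mg/kg the values were -1.53, -1.29 and -1.16, all below the vehicle range, and the difference was -1.05 (limma's adjusted p = 0.0329). In blood, fewer cells of a type and less of a transcript per cell cannot be told apart, which holds for every result here.

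Dusp6 was still lower at 6 h. The 2000 mg/kg animals lay at -1.74, -1.56 and -0.77, against -0.57, -0.23 and 0.17 in vehicle animals, again without overlap, and the log2 difference of -1.20 (SE 0.27) was 2.3-fold lower with limma's adjusted p = 0.0023. Of the 1500 mg/kg animals 5 of 6 were below the vehicle range and 1 was at 0.24, above it, and the difference of -0.79 did not pass (adjusted p = 0.122). By 24 h the groups overlapped. The 2000 mg/kg animals spread over -1.88, -0.82 and -0.13, against -0.86, -0.48 and 0.26 in vehicle animals, and the differences were -0.54 for 2000 (adjusted p = 0.5) and -0.32 for 1500 mg/kg (adjusted p = 0.82). From 3 to 24 h that difference at 2000 mg/kg changed by 1.11 (SE 0.38), which did not pass (adjusted p = 0.101).

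Its pair of probes moved alike. Probes 9841 and 18706 correlated over the 72 animals with r = 0.92, and at 3 h the 2000 mg/kg difference was -1.71 for probe 9841 and -1.58 for probe 18706, both past the test. For 1500 mg/kg at 3 h the first probe passed (-1.15, limma's adjusted p = 0.0217) and the second did not (-0.94, adjusted p = 0.0733). By dye, the 3 h difference at 2000 mg/kg was -1.51 with the animals in Cy5 and -1.78 in Cy3. Some arrays lack 500 of the features, and at 3 h both kinds of array occur within each group. Among animals with both arrays lacking those features (2 at 2000 mg/kg against 2 vehicle) the Dusp6 difference was -2.09 (limma's adjusted p = 0.00896), and among those with both arrays holding them (4 against 2) it was -1.27 (adjusted p = 0.276). The 1500 mg/kg call at 3 h depended on which animals were included. Limma's adjusted p rose above 0.05, to at most 0.157, when any 1 of 7 of the 12 animals was left out. With single animals left out the difference itself stayed between -1.14 and -0.92.

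Rgs2, whose product shortens signalling by Gq-coupled receptors, was lower at 3 h with both upper doses. The 2000 mg/kg animals had -1.61, -1.24 and -0.67 as lowest, median and highest ratio, against -0.63, -0.17 and 0.47 in vehicle animals, without overlap. Means were -1.21 ± 0.31 in 2000 mg/kg and -0.10 ± 0.39 in vehicle animals (SD, n = 6 each), and the log2 difference of -1.11 (SE 0.18), 2.16-fold lower, had limma's adjusted p = 1.88e-05. The 1500 mg/kg animals had -1.02, -0.85 and -0.48, of which 5 of 6 lay below the vehicle range, with a difference of -0.71 (limma's adjusted p = 0.0294).

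At the later times no Rgs2 difference from vehicle passed. At 6 h the 2000 mg/kg animals had -0.72, -0.24 and 0.00, against -0.74, 0.06 and 0.24 in vehicle animals, and the difference was -0.26 (adjusted p = 0.396). At 24 h the 2000 mg/kg animals had -0.35, 0.30 and 0.57, against -0.47, -0.32 and 0.36 in vehicle animals, a difference of 0.40 (adjusted p = 0.402), and the 1500 mg/kg difference was 0.51 (adjusted p = 0.2). The change between 3 and 24 h itself passed the test, at 1.51 (SE 0.25) for 2000 mg/kg (limma's adjusted p = 6.49e-05) and 1.22 (SE 0.25) for 1500 mg/kg (limma's adjusted p = 0.00296). By probe it was 0.61 (probe 2754, limma's adjusted p = 0.0493) and 2.42 (probe 20731) for 2000 mg/kg, and 0.84 and 1.60 for 1500 mg/kg, all past the test. Among animals with both arrays lacking the 500 features the 1500 mg/kg change of Rgs2 was 1.31 and did not pass (adjusted p = 0.0687). Rgs2 also separated the 2 lower treated doses at 3 h, with a difference of -0.64 for 1500 against 150 mg/kg (limma's adjusted p = 0.0307), as did Dusp6 with -1.16 (limma's adjusted p = 0.0118).

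The probes of Rgs2 gave the same direction with unlike sizes. At 3 h and 2000 mg/kg the difference was -0.41 (SE 0.13) for probe 2754 and -1.81 (SE 0.25) for probe 20731 (limma's adjusted p = 0.0307 and 2.13e-06), and the difference between the probes was not tested. The probes correlated over the animals with r = 0.82. By dye the gene's value was -0.82 with animals in Cy5 and -1.39 in Cy3. By array design it was -1.36 among animals with both arrays lacking the 500 features (limma's adjusted p = 0.00959) and -0.92 among those with both holding them (adjusted p = 0.248). Left out singly, 6 of 12 animals each ended the 1500 mg/kg call (highest adjusted p 0.16), and 6 of 12 ended the call of 1500 against 150 mg/kg (highest 0.199), whereas that of Dusp6 ended without 1 animal, number 0460 of the 150 mg/kg group (-0.97, adjusted p = 0.109).

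**Figure D2:**
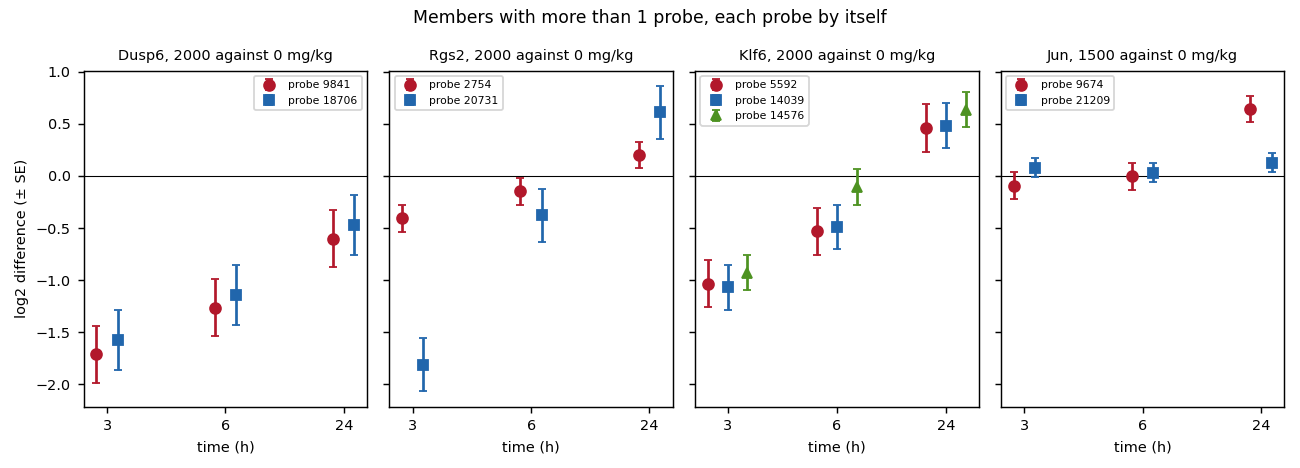
The log2 difference from vehicle (y axis, ± SE) is plotted against time (3, 6 and 24 h) for each probe of the 4 members with several probes, at 2000 mg/kg for Dusp6, Rgs2 and Klf6 and at 1500 mg/kg for Jun. The probes of Dusp6 and Klf6 lie close together, those of Rgs2 stand apart at 3 h (-0.41 and -1.81) and those of Jun at 24 h (0.64 and 0.13).

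Nr4a1 encodes Nur77, an orphan nuclear receptor that antigen receptor signalling induces in lymphocytes. At 3 h the 2000 mg/kg animals had -1.66, -1.31 and -0.64, against -0.48, -0.19 and 0.50 in vehicle animals, and the groups did not overlap. The means of -1.23 ± 0.43 in 2000 mg/kg and -0.11 ± 0.36 in vehicle animals (SD, n = 6 each) gave a log2 difference of -1.12 (SE 0.33), 2.18-fold lower, with limma's adjusted p = 0.0165. This call ended when vehicle animal 6370 (-1.0, adjusted p = 0.0688) or 2000 mg/kg animal 8511 (-1.04, adjusted p = 0.0529) was left out. With 1500 mg/kg the values of -1.21, -0.97 and -0.70 also lay wholly below the vehicle range, with a difference of -0.86 that did not pass (adjusted p = 0.174).

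Later Nr4a1 differences had the same sign and did not pass. For Nr4a1 at 6 h the 2000 mg/kg animals had -1.52, -1.24 and -0.31, against -1.05, -0.15 and 0.34 in vehicle animals, a difference of -0.86 (adjusted p = 0.0854). At 24 h the difference was -0.61 for 2000 (adjusted p = 0.552) and -0.72 for 1500 mg/kg (adjusted p = 0.456), and the 1500 mg/kg group held the lowest Nr4a1 value of all, -2.81. The single probe of Nr4a1 gave -0.85 in Cy5 (adjusted p = 0.111) and -1.39 in Cy3 (limma's adjusted p = 0.0332) at 3 h. Within designs the 3 h value was -1.45 for arrays lacking the 500 features (adjusted p = 0.301) and -0.83 for those holding them (adjusted p = 0.401).

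Klf6 encodes a Krüppel-like zinc finger factor expressed in myeloid cells. At 3 h the 2000 mg/kg animals had -1.63, -1.05 and -0.54, against -0.43, -0.07 and 0.44 in vehicle animals, with no overlap. The means were -1.08 ± 0.36 in 2000 mg/kg and -0.07 ± 0.30 in vehicle animals (SD, n = 6 each), a log2 difference of -1.01 (SE 0.20), 2.01-fold lower, with limma's adjusted p = 0.000269. The 1500 mg/kg values were -0.72, -0.65 and -0.18, 4 of 6 below the vehicle range, and the difference of -0.48 did not pass (adjusted p = 0.218).

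At the later times Klf6 itself did not pass against vehicle, with differences still below 0 at 6 h and above 0 at 24 h for both upper doses. By 6 h the 2000 mg/kg animals had -0.74, -0.27 and -0.11, against -0.22, 0.03 and 0.18 in vehicle animals, a difference of -0.38 (adjusted p = 0.248). At 24 h 4 of 6 animals at 2000 mg/kg stood above the vehicle range, with -0.24, 0.65 and 0.71, against -0.48, -0.29 and 0.51 in vehicle animals, but the difference of 0.53 did not pass (adjusted p = 0.256), nor did 0.40 for 1500 mg/kg (adjusted p = 0.538). For Klf6 at 2000 mg/kg the 24 h minus 3 h change was 1.54 (SE 0.28) and passed (limma's adjusted p = 0.000247). Between 6 and 24 h it was 0.90 (adjusted p = 0.0506).

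The 3 probes of Klf6 gave -1.03, -1.07 and -0.93 at 3 h and 2000 mg/kg, all past the test, and correlated in pairs with r between 0.88 and 0.99. Probe 14576 alone passed at 24 h, with 0.68 at 1500 mg/kg (limma's adjusted p = 0.0212). The gene's 3 h value was -0.97 in Cy5 and -1.05 in Cy3. It was -1.16 (adjusted p = 0.0537) on arrays lacking the 500 features and -0.83 (adjusted p = 0.335) on those holding them. When single animals were left out, the 2000 mg/kg calls of Dusp6, Rgs2 and Klf6 at 3 h, of Dusp6 and Dusp1 at 6 h, and the changes of Rgs2 and Klf6 between 3 and 24 h all remained past the threshold.

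Dusp1 encodes the nuclear phosphatase that switches off p38 and JNK, and it is a known glucocorticoid target. It was higher in treated animals, by small amounts, and no difference at 150 mg/kg passed. At 6 h the mean at 150 mg/kg was already 0.12, against -0.08 in vehicle and 0.19 in 2000 mg/kg animals. At 6 h the 2000 mg/kg animals had 0.11, 0.17 and 0.28, against -0.23, -0.06 and 0.03 in vehicle animals, without overlap. The log2 difference was 0.27 (SE 0.07), 1.21-fold higher, with limma's adjusted p = 0.00743. With 1500 mg/kg the values were -0.04, 0.20 and 0.43 and the difference was 0.28 (limma's adjusted p = 0.0455), a call that ended when any 1 of 9 of the 12 animals was left out (highest adjusted p 0.156).

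Before and after 6 h the Dusp1 values pointed the same way. At 3 h the 2000 mg/kg animals had 0.04, 0.13 and 0.27, against -0.16, -0.06 and 0.04 in vehicle animals, and although the groups did not overlap the difference of 0.20 missed the threshold (adjusted p = 0.0581). At 24 h the 1500 mg/kg animals had 0.04, 0.15 and 0.37, against -0.30, -0.14 and 0.11 in vehicle animals, and the difference of 0.29 passed (limma's adjusted p = 0.0140). It no longer did without vehicle animal 2507 or 7067 or 1500 mg/kg animal 3046 (adjusted p 0.0513 to 0.0518). The 2000 mg/kg difference at 24 h was 0.24 (adjusted p = 0.0871). On 1 dye alone none of the Dusp1 differences of 1500 and 2000 mg/kg from vehicle passed. When the single arrays were fitted with dye and with the animal as a block, every called Dusp1 difference lost its call, with adjusted p of 0.0559 for 2000 and 0.0843 for 1500 mg/kg at 6 h and 0.136 for 1500 mg/kg at 24 h. At 6 h and 2000 mg/kg the values were 0.26 in Cy5 (adjusted p = 0.176) and 0.29 in Cy3 (adjusted p = 0.133). Within the design lacking the 500 features the value was 0.25 (adjusted p = 0.0535, 5 animals against 5).

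The EGR factors are zinc finger proteins that bind GC-rich sites, and Egr3 is best known in T cells as a brake on activation. At 6 h the 2000 mg/kg animals had Egr3 ratios of -0.01, 0.08 and 0.16, against -0.16, -0.13 and -0.04 in vehicle animals, without overlap. The log2 difference was 0.18 (SE 0.05), 1.14-fold higher (limma's adjusted p = 0.0156), and without 2000 mg/kg animal 8597 it was 0.17 (adjusted p = 0.0557). At 1500 mg/kg the values of -0.02, 0.09 and 0.18 also lay above the vehicle range and the difference was 0.21 (limma's adjusted p = 0.0468), a call lost when any 1 of 11 of the 12 animals was left out. At 6 h 10 of 12 vehicle arrays but 4 of 12 arrays at 1500 mg/kg lack the 500 features. With array design as a covariate this Egr3 call was lost, and that of Dusp1 at the same dose and time was kept. At 6 h the mean Egr3 ratio at 150 mg/kg was 0.04, beside 0.07 at 2000 mg/kg, and the 150 mg/kg difference from vehicle did not pass. The 6 h vehicle animals held the lowest mean Egr3 ratio of the 3 vehicle groups, at -0.12, against -0.03 at 3 h and 0.07 at 24 h. Each of these ratios is to the pool of its own time.

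At 24 h the Egr3 difference was -0.10 at 2000 mg/kg (adjusted p = 0.562). The change between 6 and 24 h of -0.28 (SE 0.07) passed (limma's adjusted p = 0.0171), and without 2000 mg/kg animal 9999 it was -0.25 (adjusted p = 0.0545). On single dyes the 6 h difference at 2000 mg/kg was 0.21 in Cy5 (adjusted p = 0.0515) and 0.16 in Cy3 (adjusted p = 0.172), and within the design lacking the 500 features it was 0.17 (adjusted p = 0.062).

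Egr1, the classical serum response gene, passed in no comparison. Its nearest approach was at 24 h, when 2000 mg/kg animals had -0.15, 0.13 and 0.70, against -0.41, -0.20 and -0.00 in vehicle animals. Although 5 of 6 animals exceeded the vehicle range, the difference of 0.43 (SE 0.16) had an adjusted p of 0.247, and that of 1500 mg/kg was 0.34 (adjusted p = 0.508). Its within-group SD was large in the vehicle animals at 3 h (0.43) and small at 6 h (0.10).

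Jun, Fos and Junb form AP-1, a dimer that binds TGACTCA. Jun passed once, at 24 h with 1500 mg/kg. These animals had -0.01, 0.26 and 0.60, against -0.32, -0.04 and 0.11 in vehicle animals, with 5 of 6 above the vehicle range, and the log2 difference was 0.38 (SE 0.09), 1.3-fold higher (limma's adjusted p = 0.0142). At 2000 mg/kg the values of 0.02, 0.15 and 0.53 gave 0.30 (adjusted p = 0.129), and at 3 and 6 h every Jun difference from vehicle lay between -0.12 and 0.03.

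Only 1 of the Jun probes passed. At 1500 mg/kg and 24 h probe 9674 gave 0.64 (limma's adjusted p = 0.00126) and probe 21209 gave 0.13 (adjusted p = 0.772), the probes correlated over animals with r = 0.32, and the difference between them was not tested. By dye it was 0.25 in Cy5 (adjusted p = 0.831) and 0.51 in Cy3 (adjusted p = 0.108), and the fit of single arrays with the animal as a block did not call it (adjusted p = 0.108). The call ended without vehicle animal 3565 (0.33, adjusted p = 0.0728) or 5480 (0.36, adjusted p = 0.0506), and without 1500 mg/kg animal 0861 (0.32, adjusted p = 0.113) or 8385 (0.34, adjusted p = 0.0789).

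Fos and Junb passed in no comparison. Fos ratios at 6 h were -0.53, 0.68 and 0.97 in 2000 mg/kg animals, against -1.03, 0.10 and 0.54 in vehicle animals, with 4 of 6 above the vehicle range and a difference of 0.49 (SE 0.22, adjusted p = 0.164). The Fos probe carried the largest dye effect of the members, with the Cy5 array 1.08 above the turned Cy3 array on average, and its 6 h difference was 0.05 in Cy5 and 0.94 in Cy3 (limma's adjusted p = 0.027). Junb at 6 h had 0.06, 0.21 and 0.33 in 2000 mg/kg animals, against -0.09, 0.04 and 0.30 in vehicle animals, a difference of 0.13 (adjusted p = 0.298). At 24 h the difference was 0.41 for Fos (adjusted p = 0.563) and -0.02 for Junb (adjusted p = 0.963).

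Members and lists were chosen with earlier results of these data known. The counts here and for the lists below therefore cannot test whether these genes stand out from all features. Counted together, 4 of 10 members were lower and 0 higher at 3 h with 2000 mg/kg, where 9.23% of all 14678 features passed, 8.32% as lower and 0.913% as higher. With 1500 mg/kg at 3 h 2 members were lower (background 1.29%). At 6 h with 2000 mg/kg 1 member was lower and 2 were higher (9.22%), and with 1500 mg/kg 2 were higher (0.749%). At 24 h none passed with 2000 mg/kg (0.818%), although 6 of 10 members and 1461 of all features had an unadjusted p under 0.05, and 2 were higher with 1500 mg/kg (1.21%). The median member difference at 2000 mg/kg was -0.01 at 3 h, -0.04 at 6 h and 0.27 at 24 h, beside 0.03, 0.02 and -0.00 over all features.

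The 150 mg/kg dose moved no member past the test at any time, and limma called 0% of all features there at 3, 6 and 24 h. At an unadjusted p under 0.05 there were 616, 693 and 399 features and 0, 2 and 0 members. Both of these members, Dusp1 and Egr3, were higher at 6 h, by 0.20 (adjusted p = 0.935) and 0.16 (adjusted p = 0.892). With 1500 against 150 mg/kg 2 of 10 members were lower at 3 h, Dusp6 and Rgs2, where 3.28% of features passed. At 6 h the 1500 against 150 mg/kg comparison called 0.0136% of features and at 24 h 1.04%, with no member in either, and 2 and 5 members, beside 1314 and 1124 of all features, had an unadjusted p under 0.05. The 2000 and 1500 mg/kg doses were separated by 0% of features at 3, 6 and 24 h, with 549, 677 and 506 features and 3, 0 and 0 members at an unadjusted p under 0.05. The members concerned at 3 h were Dusp6 (-0.60), Rgs2 (-0.40) and Klf6 (-0.53), each with an adjusted p that rounds to 1.

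Changes of the difference between times were called in few members. For 2000 mg/kg between 3 and 24 h 2 members passed, Rgs2 and Klf6 (2.73% of features), between 6 and 24 h 1, Egr3 (3.67%), and between 3 and 6 h none (0.00681%), with 2 members and 626 features at an unadjusted p under 0.05. For 1500 mg/kg between 3 and 24 h Rgs2 passed (1.51%), and none did between 6 and 24 h (0.225%) or between 3 and 6 h (0%). In those 2 comparisons 4 and 3 members had an unadjusted p under 0.05, beside 1452 and 565 of all features.

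**Figure D3:**
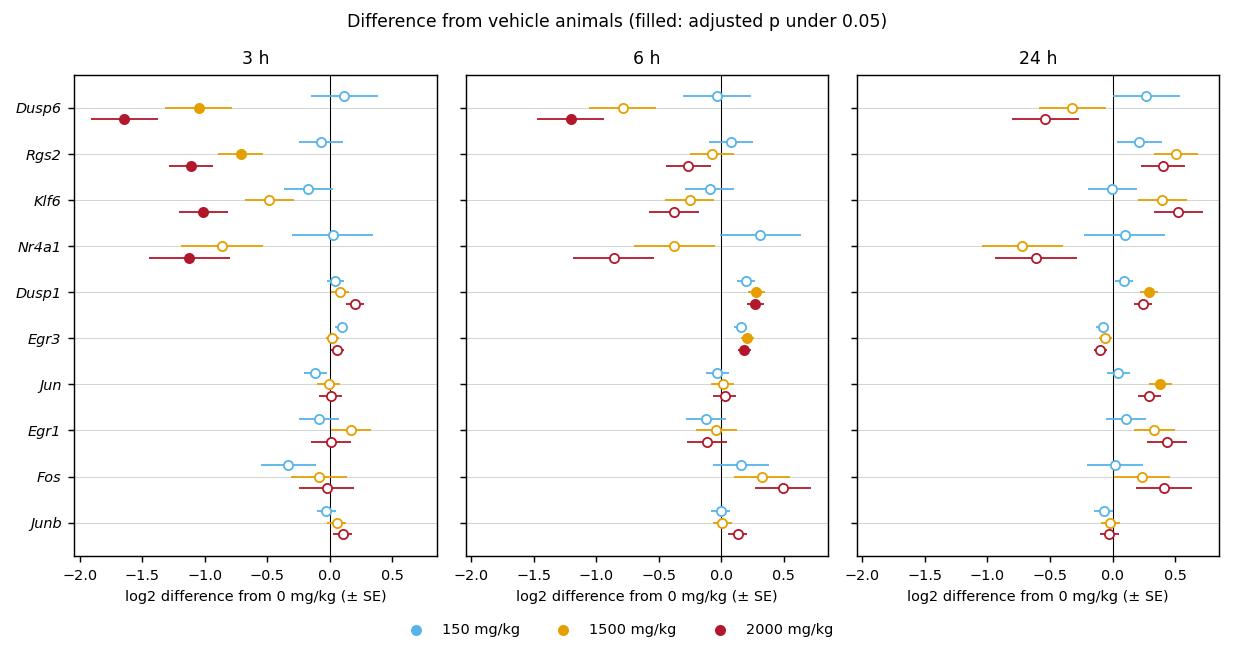
The log2 difference from vehicle (x axis, ± SE) of each member (y axis) is shown at 3, 6 and 24 h for 150, 1500 and 2000 mg/kg, with filled points at an adjusted p under 0.05. Filled points at 3 h belong to Dusp6, Rgs2, Klf6 and Nr4a1, all below 0, and at 24 h to Dusp1 and Jun at 1500 mg/kg, 0.29 and 0.38 above it.

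Ranked over the 12 groups, few neighbours in the order of group means stood apart by more than the larger of their SDs. Each time has its own vehicle pool, so this order compares ratios to different pools and is not one of expression level. Among 11 neighbouring pairs this held for 1 pair in Dusp6, where 2000 mg/kg at 3 h was the lowest group with a gap of 0.50 to the next. It held for 1 pair in Klf6, again with 2000 mg/kg at 3 h lowest (gap 0.53). In Rgs2 it held for 2 pairs, since 2000 mg/kg and then 1500 mg/kg at 3 h were set off from the rest. In the other 7 members no neighbouring pair differed by more than that spread.

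The 4 members that fell at 3 h correlated with each other over the 72 animals to unlike degrees. Rgs2 and Klf6 correlated with r = 0.88, Dusp6 and Nr4a1 with 0.81, Dusp6 and Rgs2 with 0.69 and Dusp6 and Klf6 with 0.68. Nr4a1 was less close to Rgs2 (0.50) and to Klf6 (0.43). After each group's mean was taken off, the 6 values in the same order were 0.76, 0.70, 0.70, 0.79, 0.49 and 0.44. Dusp1 ran against Dusp6 (-0.51, and -0.34 for the deviations) and Junb against Nr4a1 (-0.54 and -0.50). Before group means were taken off, Jun, Egr1 and Fos correlated with no other member above 0.29 in size apart from Jun with Nr4a1 (-0.31). These are descriptions over animals that share the vehicle pool of their time, and the genes of an animal were measured on the same arrays.

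Some members moved with markers of blood cell types, whereas Egr1 (r between -0.22 and 0.35) and Fos (between -0.26 and 0.26) were close to none of the 7 marker lists. Dusp6 followed the mean of 6 B cell markers (r = 0.92) and of 11 T cell markers (0.90), and within groups the values were 0.81 and 0.80, but it was also close to monocyte markers (0.74, and 0.69 within groups). Genes on none of the marker lists were as close to Dusp6, such as Lipa (0.95) and Snrpc (0.94), described below. How many of all features reach such values was not counted, for Dusp6 or the other members. Nr4a1 followed T cell (0.77) and B cell markers (0.75), with 0.53 for monocyte markers. Rgs2 and Klf6 followed the mean of 11 monocyte markers (0.87 and 0.86, and 0.71 and 0.74 within groups). Their values with B cell markers were 0.62 for Rgs2 and 0.64 for Klf6 (0.54 and 0.69 within groups) and with T cell markers 0.56 and 0.59 (0.49 and 0.61), so within groups Klf6 was nearly as close to B cell as to monocyte markers. Jun, averaged over its 2 arrays, correlated with the mean of 8 neutrophil markers (0.66, and 0.52 within groups), although its arrays did not order the animals alike (-0.11). Junb ran against T cell markers (-0.59). Beside Dusp6 and Nr4a1 at 3 h, the T cell mean was -1.06 to -0.49 in 2000 mg/kg animals and -0.25 to 0.04 in vehicle animals, and the B cell mean was -1.45 to -0.89 in 2000 mg/kg and -0.36 to 0.29 in vehicle animals. At 6 h the T cell mean was -0.86 to -0.40 in 2000 mg/kg and -0.17 to 0.08 in vehicle animals, and the B cell mean -0.98 to -0.55 in 2000 mg/kg and -0.17 to 0.26 in vehicle animals.

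Of 11 T cell markers 6 were lower at 3 h and 6 at 6 h with 2000 mg/kg (8.32% and 8.26% of all features), among them Cd5, a surface regulator of the antigen receptor (-1.69 at 3 h and -1.20 at 6 h). Of 6 B cell markers 4 and 5 were lower, among them Jchain, the joining chain of secreted immunoglobulin (-1.99 and -1.44). Beside Rgs2 and Klf6 at 3 h, 6 of 11 monocyte markers were lower, among them the complement receptor C5ar1 (-1.99). None of the other monocyte markers had a difference below 0. The monocyte mean at 3 h was -1.02 to -0.57 in 2000 mg/kg and -0.35 to 0.14 in vehicle animals. At 24 h 3 of 11 monocyte markers were higher with 2000 mg/kg (0.491% of all features), C5ar1 with 1.10, and 5 of 11 differences lay below 0. The monocyte mean at 24 h was -0.03 to 0.36 in 2000 mg/kg and -0.32 to 0.30 in vehicle animals. Beside Jun at 24 h, 4 of 8 neutrophil markers were higher with 1500 mg/kg (0.845% of all features) and the neutrophil mean was 0.20 to 2.02 in 1500 mg/kg and -0.25 to 0.41 in vehicle animals. At 6 h, beside the rises of Dusp1 and Egr3, 1 of 8 neutrophil markers was higher with 2000 mg/kg (0.961% of all features), the decoy interleukin receptor Il1r2 (2.0). The neutrophil mean at 6 h was 0.14 to 0.67 in 2000 mg/kg and -0.33 to 0.19 in vehicle animals. With 2000 mg/kg at 3 h 1 of 8 neutrophil markers was lower, Ncf4 (-1.07, limma's adjusted p = 0.000854), and none was higher. With 2000 mg/kg at 3 h 1 of 6 natural killer markers was lower (8.32% of all features) and 1 of 5 platelet markers higher (0.913%). Against vehicle 0 of 9 erythroid markers passed at any time (9.23%, 9.22% and 0.818% of all features with 2000 mg/kg). The erythroid marker Gata1 was lower with 1500 against 150 mg/kg at 24 h (-0.28, limma's adjusted p = 0.0137). Its 1500 mg/kg change from 3 to 24 h was -0.39 (limma's adjusted p = 0.0125). The part of these cell markers in the members' differences was not tested.

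**Figure D4:**
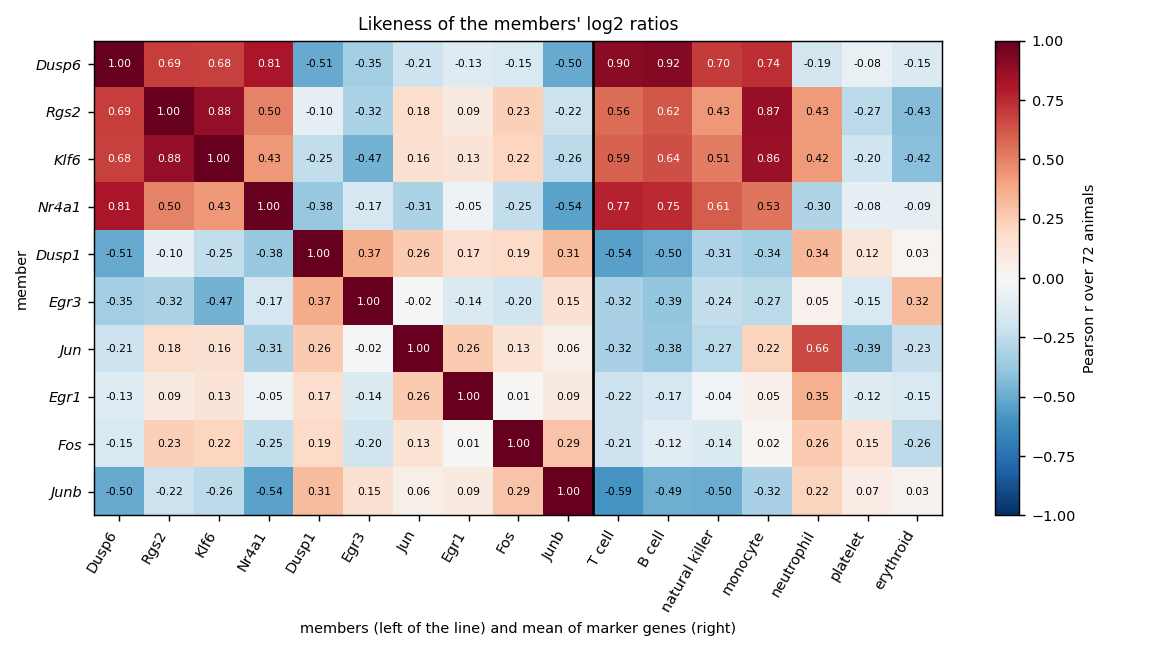
Pearson's r over 72 animals is shown for each pair of members (left of the line) and for each member with the mean of each list of blood cell markers (right), on a colour scale from -1 to 1. Dusp6 is highest with B and T cell markers (0.92 and 0.90), Rgs2 and Klf6 with each other (0.88) and with monocyte markers (0.87 and 0.86), and Jun with neutrophil markers (0.66).

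Among 8331 other named genes the profile over 72 animals most like that of Dusp6 belonged to Lipa (r = 0.95), the lysosomal acid lipase, followed by the splicing factor Snrpc (0.94). For Klf6 they were Mefv, which encodes pyrin (0.94), and the purinergic receptor P2rx4 (0.93), and for Rgs2 the tumour necrosis factor receptor Tnfrsf1a (0.90) and Mefv (0.90). Nr4a1 was nearest to the C-type lectin Clec4a3 (0.85) and Nob1 (0.84). Jun was nearest to Mmp8, the neutrophil collagenase (0.74), and Cd63 (0.68). Values were lower for Egr3, with Slc25a29 (0.67) and Ubqln4 (0.65), and for Dusp1, with Mdga1 (0.63) and B4galt4 (0.63).

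Of 61 further immediate early genes 37 were tested, and most did not pass. With 2000 mg/kg 5 were lower and 0 higher at 3 h, 1 was lower at 6 h and none passed at 24 h. Of all features 8.32% and 8.26% were lower at 3 and 6 h and 0.818% passed at 24 h, and the list's median differences were 0.01, 0.02 and 0.03. The 5 at 3 h were Nfkbia, the inhibitor of NF-κB (-0.75, limma's adjusted p = 0.0217), the zinc finger factors Klf10 (-0.75, limma's adjusted p = 0.00198) and Klf4 (-0.67, limma's adjusted p = 0.000895), Ier2 (-0.54, limma's adjusted p = 0.00651) and the nuclear ERK phosphatase Dusp5 (-0.54, limma's adjusted p = 0.0134). Nfkbia was also the 1 at 6 h (-0.75, limma's adjusted p = 0.0229). The kinase gene Sgk1, a glucocorticoid target, was the only one higher with 1500 mg/kg at 24 h (0.79, limma's adjusted p = 0.0169).

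Upstream of the members, 22 of 36 listed genes of the MAP kinase cascade and its transcription factors were tested. At 3 h with 2000 mg/kg 5 were lower and 1 higher, at 6 h 4 were lower, and at 24 h none passed, where 9.23%, 9.22% and 0.818% of all features passed. Map2k1, the kinase that activates ERK, was lower by -0.76 on the log2 scale at 3 h (limma's adjusted p = 0.00234), and p38α, Mapk14, by -0.51 (limma's adjusted p = 0.0321). Outside the rule for named genes, and named after their values were seen to complete these counts, the p38 substrate kinase Mapkapk3 was lower at 3 h (-0.43, limma's adjusted p = 0.00136) and 6 h (-0.33, limma's adjusted p = 0.0174), and Braf, a kinase above Map2k1, at 6 h (-0.15, limma's adjusted p = 0.0162). The ELK family members that sit with SRF at serum response elements went in opposite directions at 3 h, Elk3 with -0.64 (limma's adjusted p = 0.00119) and Elk4 with 0.62 (limma's adjusted p = 0.0277). Elk3 was also lower with 1500 mg/kg at 3 h (-0.55, limma's adjusted p = 0.0329) and with 2000 mg/kg at 6 h (-0.49, limma's adjusted p = 0.0171). Srf itself was lower at 6 h (-0.49, limma's adjusted p = 0.0115), and Mef2a, a factor that p38 phosphorylates, at 3 h (-1.0, limma's adjusted p = 0.00825).

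Within their own families, Dusp6 and Dusp5 were the 2 of 9 tested MAP kinase phosphatases that were lower at 3 h with 2000 mg/kg (8.32% of all features). The median difference of this list at 3 h was 0.05. At 6 h Dusp6 was the 1 lower (8.26% of all features) and Dusp1 the 1 higher (0.961%), and both are members. Of 11 tested RGS genes the member Rgs2 and Rgs3 (-1.23, limma's adjusted p = 0.000194) were lower at 3 h with 2000 mg/kg (8.32% of all features). The median difference of the RGS list at 3 h was -0.07. No RGS gene passed at 6 or 24 h with 2000 mg/kg (9.22% and 0.818% of all features).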

How the data were processed

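The deposited data hold a ratio for each feature on each array; the authors' scale is not given in the sources used here, and the deposited values are read as log10 ratios of Cy5 over Cy3, already normalised. Array medians lay between -0.00754 and 0.00873 and SDs between 0.0999 and 0.269; exact zeros (10.9%) were treated as missing. The 500 features absent on 91 of 144 arrays were dropped, leaving 21575 of 22075. Ratios were then expressed as log2 of the animal to the pool (sign changed for Cy3), averaged over the 2 arrays of an animal and over probes of a gene (12750 probes have 1 symbol, 5 several, 8820 none). A feature needed values in 4 of 6 animals of each group, which left 14678, with 0.687% of values missing. In the dose key 19 animal numbers had lost zeros and were matched on the remaining digits.

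Limma 3.58.1 (R 4.3.3, data.table version 1.17.8) fitted 12 group means over 72 animals with 2.37 prior degrees of freedom, and its two-sided p-values were adjusted by Benjamini and Hochberg's method over all features (threshold 0.05); statmod 1.5.0 served the animal block. Groups are separate animals. The scripts were checked on simulated data. Named genes were the members, for each other gene list up to 6 genes called for 1500 or 2000 mg/kg against vehicle (largest size first), up to 2 called markers of each cell type and time, and the 2 most alike genes. Members and lists were chosen with earlier results of these data known. Alternatives covered dye, array design, weights, centring, zeros, filters, probes and single animals. Tables and figures used Python 3.11.15, pandas 2.3.3, numpy 2.4.6 and matplotlib 3.10.9.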

Additional observations from a re-analysis of the deposited data

Results flagged for a closer look

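In 7 of 120 sets of 6 animals, 1 member in 1 group each, a single animal stood far from the other 5, by Dixon's 95% criterion, which chance meets in about 1 set in 20. Dusp1 was -0.35 in animal 6954 (150 mg/kg, 24 h), where the others had -0.04 to 0.09. Animal 2864 (2000 mg/kg, 6 h) stood apart in both Nr4a1, at -0.31 where the others had -1.52 to -1.23, and Fos, at -0.53 where the others had 0.42 to 0.97. Rgs2 was -0.74 in vehicle animal 4101 at 6 h (others -0.10 to 0.24). Fos was 1.45 in animal 5143 (150 mg/kg, 6 h; others -0.18 to -0.06), Jun 0.42 in animal 0766 (2000 mg/kg, 3 h; others -0.10 to 0.06) and Junb 0.48 in animal 9676 (1500 mg/kg, 6 h; others -0.11 to 0.10).

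Differences from vehicle changed between times, by the test of the change itself in limma, for 3 members. The 24 h minus 3 h change was 1.51 for Rgs2 (adjusted p = 6.49e-05) and 1.54 for Klf6 (adjusted p = 0.000247) at 2000 mg/kg, and 1.22 for Rgs2 at 1500 mg/kg (adjusted p = 0.00296). The 24 h minus 6 h change of Egr3 at 2000 mg/kg was -0.28 (adjusted p = 0.0171). Between these times the vehicle mean of Egr3 went from -0.12 to 0.07 and the 2000 mg/kg mean from 0.07 to -0.03. Each mean is a ratio to the pool of its own time, so much of this change lies in the vehicle ratios.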

How the results depend on the processing

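Under 16 other settings, 1 of them (arrays lacking the 500 features) chosen after seeing the data, no called member changed sign. Numbers of members called moved by over 1.5 times in 58 of 325 cases; the cause was not tested. A test against a 1.5-fold change called 0 in all comparisons with calls. Cy5 arrays alone gave 0 for 1500 mg/kg at 3, 6 and 24 h and 0 for the 6 to 24 h change at 2000 mg/kg, with 1 for 2000 mg/kg at 6 h and 1 for 1500 against 150 mg/kg at 3 h; Cy3 arrays alone gave 1, 0 and 0 for 1500 mg/kg at 3, 6 and 24 h, 0 for the 6 to 24 h change at 2000 mg/kg and 1 for 1500 against 150 mg/kg at 3 h. Animals whose arrays hold the 500 features (no 24 h value) gave 0 for 2000 and 1500 mg/kg at 3 and 6 h and for 1500 against 150 mg/kg at 3 h. Those lacking them gave 2 for 2000 and 0 for 1500 mg/kg at 3 h, 1 for 2000 mg/kg at 6 h, 1 for 1500 mg/kg and for 1500 against 150 mg/kg at 24 h, 0 for the 1500 mg/kg 3 to 24 h change and 3 for the 2000 mg/kg 6 to 24 h change. Array design as covariate gave 1 for 1500 mg/kg at 6 h, with Egr3 lost, and zeros kept 0. Array weights gave 6 for 2000 mg/kg at 6 h, 1 for 1500 mg/kg at 24 h, 2 for 2000 against 1500 mg/kg at 3 h, 1 for 1500 against 150 mg/kg at 6 h, and 1 and 3 for the 2000 mg/kg changes from 3 to 6 and 6 to 24 h. Fits of only the groups compared gave 5 for 2000 and 0 for 1500 mg/kg at 6 h, 0 for 1500 mg/kg at 24 h, 1 for 1500 against 150 mg/kg at 3 h and 0 for the 6 to 24 h change. Centring and scaling gave 0 for 1500 mg/kg at 6 h, 1 for 1500 against 150 mg/kg at 3 and 24 h and 0 for the 6 to 24 h change. Single probes gave 3 for the 1500 mg/kg 3 to 24 h change and 1 for 1500 against 150 mg/kg at 24 h. Single arrays with the animal as block gave 1 for 2000 and 0 for 1500 mg/kg at 24 h, 1 for 1500 against 150 mg/kg at 6 h, 2 for the 2000 mg/kg 6 to 24 h change, and 2 and 1 for the 1500 mg/kg changes from 3 and 6 h to 24 h; its unchanged numbers for 2000 and 1500 mg/kg at 6 h lost Dusp1 (adjusted p = 0.0559 and 0.0843) and gained Nr4a1 and Dusp6. A value in every animal gave 2 for the 2000 mg/kg 6 to 24 h change.

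With 1 animal left out at a time the number called ranged from 3 to 5, 2 to 5 and 0 to 1 for 2000 mg/kg at 3, 6 and 24 h, and from 0 to 2, 0 to 3 and 1 to 2 for 1500 mg/kg. It ranged from 0 to 2, 0 to 1 and 0 to 1 for 1500 against 150 mg/kg at 3, 6 and 24 h. For changes between times the range was 2 to 3 (3 to 24 h) and 0 to 3 (6 to 24 h) at 2000 mg/kg, and 1 to 3 and 0 to 1 at 1500 mg/kg. The remaining comparisons stayed at 0. Ratios hold no signal over background, so faint probes could not be told apart from bright ones. No paired analysis was possible because animal numbers are not shared between groups.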
